A study of Mus musculus with 6 samples.

Results

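The 10 genes studied here serve eicosanoid synthesis: the 5-lipoxygenase route (Alox5, Alox5ap, Lta4h and Ltc4s), the 12/15-lipoxygenase (Alox15) and the prostanoid route (Ptgs1, Ptgs2, Hpgds, Ptges and Tbxas1). They are called enzymes throughout, although Alox5ap encodes a helper protein. Their mRNA was followed through 6 poly-A RNA-seq libraries of mouse peritoneal macrophages. They were picked by gene symbol, and 10 of the 25509 gene rows matched. All 10 passed the filter on low counts that left 12827 genes for testing. The libraries came from Tg-ACE mice, which overexpress angiotensin-converting enzyme (genotype label JWT, an abbreviation not explained there), and from WT mice, with 3 libraries of each. All mice were C57BL/6, and all had received thioglycollate, an irritant that draws monocytes into the peritoneal cavity. Cells were harvested on day 4, separated on a Percoll gradient, and kept if they adhered during 2 h of culture. Neither the promoter that drives the transgene nor the age of the mice is stated in the labels, and the series' design text writes Tg-NKO where the sample labels write Tg-ACE.

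Libraries 2 and 3 of each genotype carry the code Exp-156b, and library 1 of each carries the code Exp-156. What these codes mean is not in the labels, nor whether libraries came from separate mice, so p-values measure the spread between these libraries, which may be technical. Totals lay between 24294258 and 28120394 expected counts, and 3 counts corresponded to 0.105 to 0.123 counts-per-million (CPM). Ace itself stood at 100.6, 25.6 and 31.8 CPM in Tg-ACE libraries 1, 2 and 3, against 16.7, 7.60 and 11.6 CPM in WT libraries 1, 2 and 3, without overlap (log2 fold change 1.95, edgeR adjusted p = 0.136). Markers of sex went with the code: Xist, the RNA of X inactivation in females, lay at 327.3 to 454.5 CPM in Exp-156b and at 0.409 and 0.527 CPM in Exp-156. Macrophage markers were abundant in both sets, the lysozyme gene Lyz2 at 14308.7 to 18017.6 CPM in Exp-156b and at 15688.3 and 16009.7 CPM in Exp-156. A difference between the codes cannot be told apart from a difference in sex or in handling.

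Eicosanoids are oxygenated products of arachidonic acid, which phospholipases free from membranes. 5-lipoxygenase, helped by its activating protein, makes leukotriene A4, which one hydrolase turns into the neutrophil attractant leukotriene B4 and another enzyme joins to glutathione to give the cysteinyl leukotrienes. The cyclooxygenases make prostaglandin H2, which separate synthases turn into prostaglandins D2 and E2 and thromboxane A2, and 12/15-lipoxygenase is known as an abundant enzyme of resident peritoneal macrophages and of eosinophils.

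Of the 10 enzymes, RefSeq gave a promoter for 8 on GRCm38.p6. The 4 printed here run 5′ to 3′ on the gene's own strand and show 3 genes that were lower in Exp-156b (Alox5, Ltc4s and Tbxas1) and 1 that did not pass that test (Ptgs1). They cover up to 250 bases before the start, without bases annotated as exon. Capitals mark letters on either strand: GAGGAA for the core of PU.1 sites, GGGCGG for the GC box, TATAAA for the TATA box and TGANTCA for the AP-1 site.
Alox5, chr6:116461179-116461428, reverse strand: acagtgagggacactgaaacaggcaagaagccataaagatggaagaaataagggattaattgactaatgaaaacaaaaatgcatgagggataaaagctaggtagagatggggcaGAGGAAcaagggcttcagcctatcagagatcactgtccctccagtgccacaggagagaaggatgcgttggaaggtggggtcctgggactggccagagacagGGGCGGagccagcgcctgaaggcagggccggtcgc
Ltc4s, chr11:50238617-50238782, reverse strand: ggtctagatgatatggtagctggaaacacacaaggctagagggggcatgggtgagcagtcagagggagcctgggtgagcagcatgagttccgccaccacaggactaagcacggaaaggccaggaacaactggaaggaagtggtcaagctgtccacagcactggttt
Tbxas1, chr6:38918876-38918979, forward strand: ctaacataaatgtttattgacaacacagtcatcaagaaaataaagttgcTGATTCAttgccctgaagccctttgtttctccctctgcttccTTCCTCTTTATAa
Ptgs1, chr2:36230176-36230425, forward strand: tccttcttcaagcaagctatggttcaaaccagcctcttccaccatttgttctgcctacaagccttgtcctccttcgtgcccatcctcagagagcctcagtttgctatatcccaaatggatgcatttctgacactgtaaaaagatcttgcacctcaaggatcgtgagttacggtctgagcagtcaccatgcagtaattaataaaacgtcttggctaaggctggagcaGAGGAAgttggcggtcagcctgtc

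PU.1 is a transcription factor of the macrophage lineage. Over the full 250 bases, GAGGAA was found before 7 of the 8 genes and in 23.1% of 27025 mouse promoters. GGGCGG stood before 3 of the 8 (32.9% of all promoters), TATAAA before 1 (13%) and TGANTCA before 1 (6.87%). TTGCNNAA, the C/EBP letters, stood before 2 (9.55%), the palindromic STAT6 motif before 2 (5.86%), and AGATAA, the GATA letters, before 0 (10.3%). Both Alox5 and Ptgs1 carry GAGGAA, at 136 to 131 and at 24 to 19 bases before the start. The Ltc4s window held none of the 7 motifs. In Tbxas1, TATAAA matched on both strands in overlapping letters. The reverse match lay 13 to 8 bases before the start and the forward match 11 to 6. The forward match runs past the end of the printed stretch, so only the reverse match is in capitals. TGANTCA reads the same on both strands. The RefSeq start of Tbxas1 lies within the span of the gene in the GENCODE annotation, so other transcripts begin elsewhere. These motifs were chosen after the values of the enzymes had been seen, and a match only describes the letters.

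No enzyme passed between the genotypes. In edgeR's quasi-likelihood test with genotype and code as terms, 0 of the 10 had a Benjamini-Hochberg adjusted p under 0.05, beside 2 of all 12827 genes, or 0.0156%, and 2 of the 10 had an unadjusted p under 0.05, Alox5 and Alox15. The log2 fold changes, Tg-ACE minus WT, lay above 0 for 4 enzymes and below for 6, with a median of -0.03 beside -0.01 over all genes. The Tg-ACE and WT libraries overlapped for all 10 enzymes, while 4.91% of all genes did not overlap. Each genotype holds libraries of both codes, so enzymes whose codes lie far apart overlap here whatever the genotype does. Exact two-sided permutation tests over the 20 assignments gave p between 0.5 and 1, where 0.1 is the smallest that 3 against 3 allows. These permutation tests leave out the code. Where the codes lie far apart, a large p from them therefore says little about the genotypes.

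Between the codes 6 enzymes passed. Alox15, Alox5, Ltc4s, Tbxas1 and Alox5ap were lower in the 4 Exp-156b libraries than in the 2 Exp-156 libraries, beside 22.9% of all genes called lower. Ptges was higher, beside 20.0% of all genes called higher. Lta4h, Ptgs1, Hpgds and Ptgs2 did not pass. The codes did not overlap for 6 enzymes lower in Exp-156b and 2 higher, against 30.9% and 28.9% of all genes. The shares called are thus large in the table as a whole, and 3 of the enzymes lay at the far end of the range: by log2 fold change Alox15 ranked 3, Alox5 ranked 6 and Ltc4s ranked 11 from the lowest of 12827 genes, whose 1st percentile was -2.72. Tbxas1 ranked 415 and Alox5ap 476. These ranks hold among genes that passed the filter by genotype. That filter can drop genes high only in the 2 Exp-156 libraries, such as Ccr3. Under a filter by code, added after seeing the data, 13256 genes were left. There the log2 fold change was -8.91 for Ccr3, beside -7.23 for Alox15. An exact permutation test over the 15 assignments of 2 against 4 allows no p under 0.0667. It gave that p for the 5 enzymes called lower and for Ptgs1 and Ptges.

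**Figure D1:**
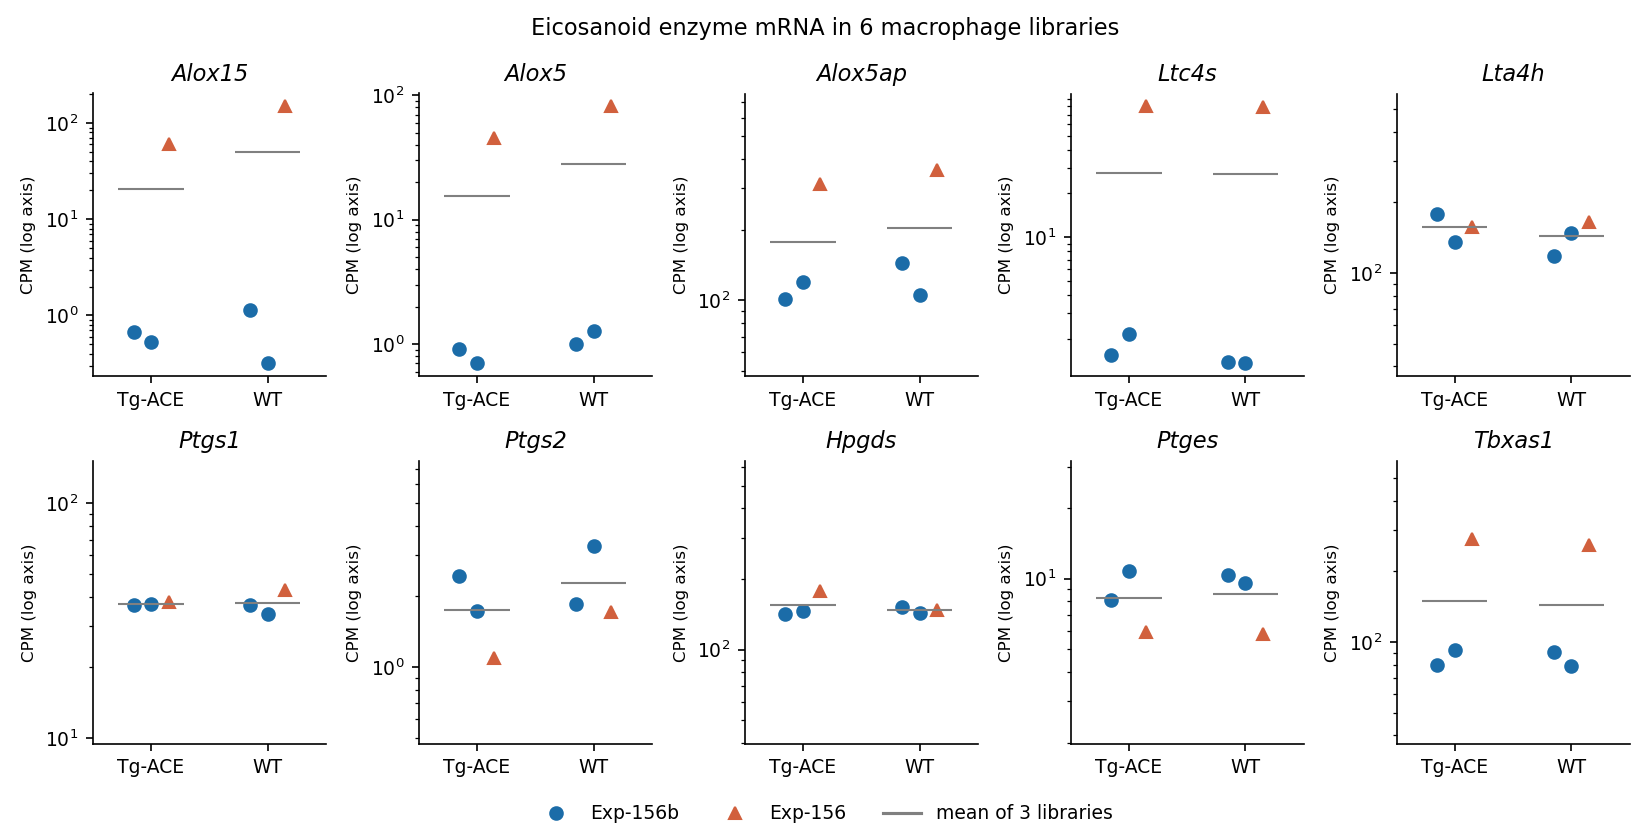
CPM of each enzyme on a log axis in the 3 Tg-ACE and the 3 WT libraries. Circles are Exp-156b libraries, triangles are Exp-156 libraries and grey lines are means of 3 libraries. The Alox15, Alox5 and Ltc4s circles lie between 0.318 and 2.14 CPM while their triangles lie between 45.1 and 149.5 CPM, in both genotypes.

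Alox5, the 5-lipoxygenase gene (chromosome 6, 116410077 to 116461178, reverse strand), was low in Exp-156b. It stood at 0.916 and 0.699 CPM in the Tg-ACE and 0.994 and 1.27 CPM in the WT libraries of Exp-156b, from 17 to 32 counts, against 45.1 CPM in the Tg-ACE and 81.5 CPM in the WT library of Exp-156. The lowest Exp-156 library was far above the highest Exp-156b library. The means were 0.970 ± 0.237 CPM (SD, n = 4) in Exp-156b and 63.3 ± 25.8 CPM (SD, n = 2) in Exp-156, a 65.2-fold lower mean in Exp-156b. The log2 fold change was -6.01 (SE 0.12, edgeR adjusted p = 3.62e-07).

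By genotype, Alox5 was the enzyme with the smallest p. In Exp-156, which holds only library 1 of each genotype, the difference between them was -0.85 on the log2 scale. In Exp-156b the difference of the means was -0.45. Both Tg-ACE values were below both WT values there, at 23 and 17 against 28 and 32 counts. How many of all genes separate in this way was not counted. Across experiments the genotypes overlapped. The fitted log2 fold change was -0.75 (SE 0.13, unadjusted p = 0.000553), which did not pass over all genes (edgeR adjusted p = 0.36). Over the alternatives the adjusted p lay between 0.105 and 1.

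Alox5ap encodes the 5-lipoxygenase activating protein, which presents arachidonic acid to the enzyme (chromosome 5, 149264767 to 149288153, forward strand). Its mRNA stood at 100.8 and 119.6 CPM in the Tg-ACE and 144.5 and 105.5 CPM in the WT libraries of Exp-156b, against 312.5 CPM in the Tg-ACE and 358.3 CPM in the WT library of Exp-156. All 4 Exp-156b libraries were below both Exp-156 libraries. With means of 117.6 ± 19.6 CPM (SD, n = 4) and 335.4 ± 32.4 CPM (SD, n = 2), the log2 fold change was -1.51 (SE 0.12, edgeR adjusted p = 0.000114). Alox5ap thus stood at 100.8 CPM or more in the libraries where Alox5 stood at 1.27 CPM or less. By genotype its log2 fold change was -0.19 (SE 0.12, edgeR adjusted p = 0.818).

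Lta4h, whose product hydrolyses leukotriene A4 to leukotriene B4 (chromosome 10, 93453411 to 93484875, forward strand), was spread alike over the libraries. It stood at 179.2 and 135.0 CPM in the Tg-ACE and 118.1 and 148.3 CPM in the WT libraries of Exp-156b, against 156.8 CPM in the Tg-ACE and 165.7 CPM in the WT library of Exp-156. Both Exp-156 values fell inside the Exp-156b range. Its log2 fold changes were -0.16 between the codes (SE 0.14, edgeR adjusted p = 0.397) and 0.13 between the genotypes (SE 0.13, edgeR adjusted p = 0.871).

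Ltc4s, the leukotriene C4 synthase gene, starts the cysteinyl leukotriene branch (chromosome 11, 50236461 to 50238616, reverse strand). It stood at 1.55 and 2.14 CPM in the Tg-ACE and 1.38 and 1.35 CPM in the WT libraries of Exp-156b, against 79.7 CPM in the Tg-ACE and 78.6 CPM in the WT library of Exp-156. The codes were again far apart, and inside Exp-156 the genotypes were nearly equal. The mean was 49.3-fold lower in Exp-156b, 1.61 ± 0.365 CPM (SD, n = 4) against 79.2 ± 0.812 CPM (SD, n = 2), with a log2 fold change of -5.63 (SE 0.12, edgeR adjusted p = 3.86e-07). The antisense gene Gm26542 shares 268 exon bases with Ltc4s and had 2 to 6 counts per library in Exp-156b and 50 and 61 in Exp-156. The Ltc4s values were whole numbers, within 1e-09, in 1 of 6 libraries, where those of the other 9 enzymes were whole in all 6. Whether reads were counted by strand is not stated, so reads of the pair may be divided and the Ltc4s level is uncertain to that extent. By genotype its log2 fold change was 0.16 (SE 0.13, edgeR adjusted p = 0.884).

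Alox15, the mouse 12/15-lipoxygenase gene (chromosome 11, 70344152 to 70352031, reverse strand), had the widest range of the 10. It stood at 0.677 and 0.534 CPM in the Tg-ACE and 1.14 and 0.318 CPM in the WT libraries of Exp-156b, from 8 to 32 counts, against 61.3 CPM (1742 counts) in the Tg-ACE and 149.5 CPM (3655 counts) in the WT library of Exp-156. The lowest and the highest Exp-156b value were both WT. The mean was 158.1-fold lower in Exp-156b, 0.666 ± 0.346 CPM (SD, n = 4) against 105.4 ± 62.4 CPM (SD, n = 2), with a log2 fold change of -7.24 (SE 0.25, edgeR adjusted p = 4.17e-06).

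By genotype the Alox15 log2 fold change was -1.10 (SE 0.27, unadjusted p = 0.00356), which did not pass over all genes (edgeR adjusted p = 0.652, between 0.0849 and 1 over the alternatives). It rested mostly on 1 pair of libraries: in log2 CPM the difference was -1.29 inside Exp-156 but -0.03 inside Exp-156b (interaction term, unadjusted p = 0.162 in edgeR). An edgeR fit of the Exp-156b libraries alone, at 8 to 32 counts, gave -0.28 (SE 0.64), too imprecise to show that no difference was present. In the Exp-156 pair the Tg-ACE over WT ratio of CPM was 0.41 for Alox15 and 0.553 for Alox5. Other genes that were high in Exp-156 differed in this ratio. It was lower still for the chemokine receptor gene Ccr3 (0.378) and for Retnlg (0.293) and stood at 0.513 for F5. By contrast, Ccr2 was at 175.9 CPM in the Tg-ACE and 192.4 CPM in the WT library, Cysltr1 at 23.2 and 21.8 CPM, Timd4 at 9.63 and 4.62 CPM, and Ltc4s nearly level. These genes were chosen after their values were seen, and their part in the Alox15 and Alox5 values was not tested.

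Ptgs1 encodes cyclooxygenase-1, the constitutive form (chromosome 2, 36230426 to 36252272, forward strand). It stood at 36.9 and 37.1 CPM in the Tg-ACE and 36.9 and 33.7 CPM in the WT libraries of Exp-156b, against 38.0 CPM in the Tg-ACE and 42.6 CPM in the WT library of Exp-156. Exp-156b lay just below Exp-156 with no overlap, by a gap smaller than the spread inside either code. The log2 fold change between the codes was -0.16 (SE 0.08, edgeR adjusted p = 0.154) and that between the genotypes -0.01 (SE 0.08, edgeR adjusted p = 0.981).

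Ptgs2 encodes cyclooxygenase-2, the inducible form (chromosome 1, 150100031 to 150108227, forward strand), and was low throughout. It stood at 2.43 and 1.73 CPM in the Tg-ACE and 1.85 and 3.26 CPM in the WT libraries of Exp-156b, against 1.09 CPM in the Tg-ACE and 1.72 CPM in the WT library of Exp-156, from 31 to 82 counts per library. The codes were separated by no more than the gap between 1.73 and 1.72 CPM. The log2 fold changes were 0.74 between the codes (SE 0.32, edgeR adjusted p = 0.101) and -0.40 between the genotypes (SE 0.29, edgeR adjusted p = 0.837). Without WT replicate 2 the difference between the codes passed (0.93, edgeR adjusted p = 0.0371).

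Hpgds, the hematopoietic prostaglandin D synthase gene (chromosome 6, 65117293 to 65144908, reverse strand), stood at 141.9 and 146.0 CPM in the Tg-ACE and 152.3 and 143.7 CPM in the WT libraries of Exp-156b, against 178.5 CPM in the Tg-ACE and 147.2 CPM in the WT library of Exp-156. Tg-ACE replicate 1 was above the other 5 libraries, which lay close together. Its log2 fold changes were -0.15 between the codes (SE 0.09, edgeR adjusted p = 0.18) and 0.07 between the genotypes (SE 0.08, edgeR adjusted p = 0.893). Without WT replicate 1 the difference between the codes passed (-0.32, edgeR adjusted p = 0.0388). Whether the genotype difference itself depends on the code was tested by an interaction term, which gave Hpgds an unadjusted p of 0.0363 and an edgeR adjusted p of 0.646, and 0 of the 10 enzymes and 0 of all genes passed (981 genes at an unadjusted p under 0.05, and 13 genes by DESeq2).

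Ptges, the gene of the inducible microsomal prostaglandin E synthase (chromosome 2, 30889471 to 30929863, reverse strand), was the enzyme that rose in Exp-156b. It stood at 8.09 and 10.8 CPM in the Tg-ACE and 10.4 and 9.58 CPM in the WT libraries of Exp-156b, against 5.91 CPM in the Tg-ACE and 5.81 CPM in the WT library of Exp-156. Every Exp-156b library was above both Exp-156 libraries. The means were 9.71 ± 1.19 CPM (SD, n = 4) and 5.86 ± 0.0687 CPM (SD, n = 2), a log2 fold change of 0.73 (SE 0.16, edgeR adjusted p = 0.00783). The call ended without Tg-ACE replicate 1 (0.78, edgeR adjusted p = 0.0529) or without WT replicate 1 (0.67, edgeR adjusted p = 0.0764), each of which leaves 1 Exp-156 library. Markers of mesothelial cells and fibroblasts were also higher in Exp-156b, their list of 7 summing to 237.7 to 494.3 CPM there and to 145.5 and 166.7 CPM in Exp-156, and their part in the Ptges value was not tested. By genotype its log2 fold change was -0.05 (SE 0.14, edgeR adjusted p = 0.958).

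Tbxas1, the thromboxane A synthase gene (chromosome 6, 38875404 to 39084585, forward strand), was lower in Exp-156b but remained well expressed. It stood at 79.8 and 92.2 CPM in the Tg-ACE and 90.8 and 79.3 CPM in the WT libraries of Exp-156b, against 274.5 CPM in the Tg-ACE and 259.5 CPM in the WT library of Exp-156. The genotypes interleaved inside Exp-156b, and the codes were far apart. The mean was 3.12-fold lower in Exp-156b, 85.5 ± 6.91 CPM (SD, n = 4) against 267.0 ± 10.6 CPM (SD, n = 2), a log2 fold change of -1.64 (SE 0.08, edgeR adjusted p = 1.69e-05). By genotype its log2 fold change was 0.04 (SE 0.08, edgeR adjusted p = 0.946).

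**Figure D2:**
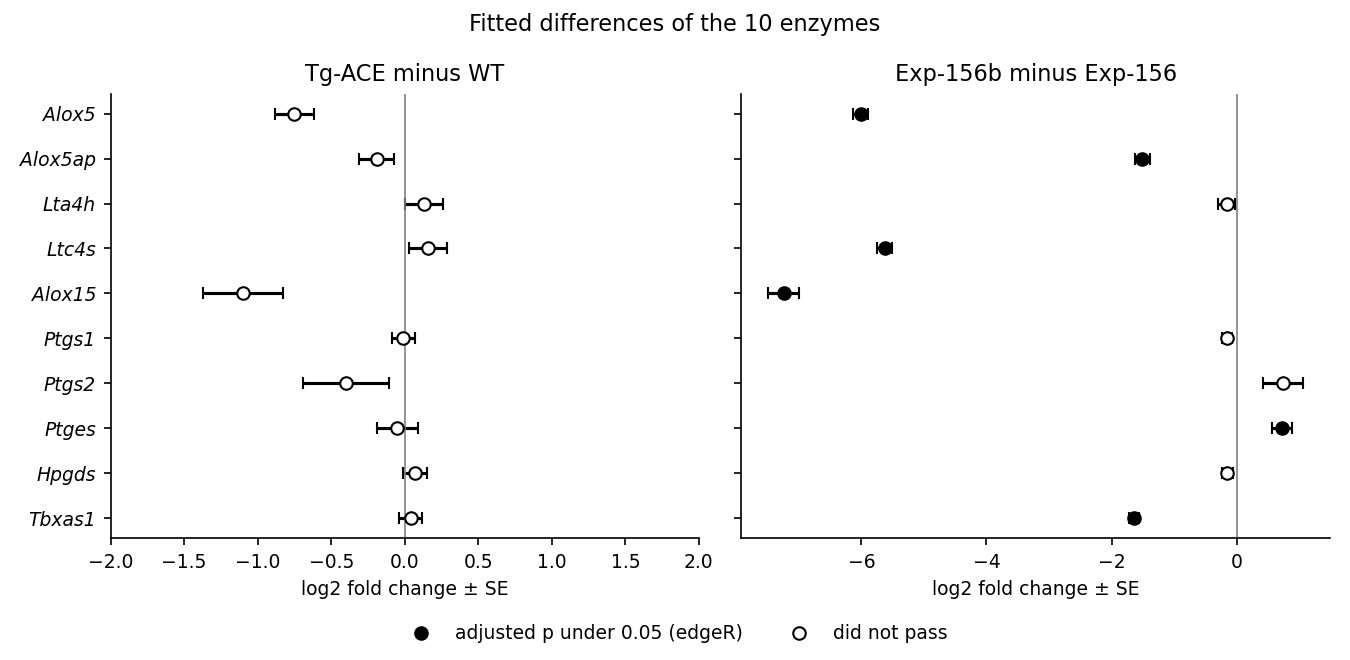
Fitted log2 fold changes of the 10 enzymes with their standard errors, Tg-ACE minus WT on the left and Exp-156b minus Exp-156 on the right, on different axis ranges. Filled points passed edgeR's test with an adjusted p under 0.05: none on the left and 6 on the right, from -7.24 for Alox15 to 0.73 for Ptges.

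Divided by the length of annotated exon, the levels can be compared between genes, though only roughly, since the length joins the exons of all annotated transcripts. In Exp-156b the order of mean CPM per kb was Alox5ap (82.8), Lta4h (23.8), Hpgds (22.7), Tbxas1 (9.41), Ptgs1 (9.31), Ptges (2.47), Ltc4s (1.58), Ptgs2 (0.506), Alox15 (0.272) and Alox5 (0.236). Among neighbours in that order the libraries of Lta4h and Hpgds overlapped, as did those of Tbxas1 and Ptgs1, Ptges and Ltc4s, Ptgs2 and Alox15, and Alox15 and Alox5. In Exp-156 the order of mean CPM per kb was Alox5ap (236.2), Ltc4s (78.1), Alox15 (42.9), Tbxas1 (29.4), Lta4h (26.4), Hpgds (25.3), Alox5 (15.4), Ptgs1 (10.4), Ptges (1.49) and Ptgs2 (0.307). There, with 2 libraries each, the Tg-ACE library of Alox15 was below both libraries of Tbxas1 and Lta4h and its WT library was at 60.9. Alox15 thus overlapped Tbxas1, Lta4h and Hpgds, Lta4h overlapped Hpgds, and the lower Alox5 and the higher Ptgs1 library were level. Alox5ap led in both sets, and per length it stood at 350.4 times Alox5 in Exp-156b and 15.3 times in Exp-156. Ptgs1 stood at 18.4 times Ptgs2 in Exp-156b and 33.8 times in Exp-156.

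**Figure D3:**
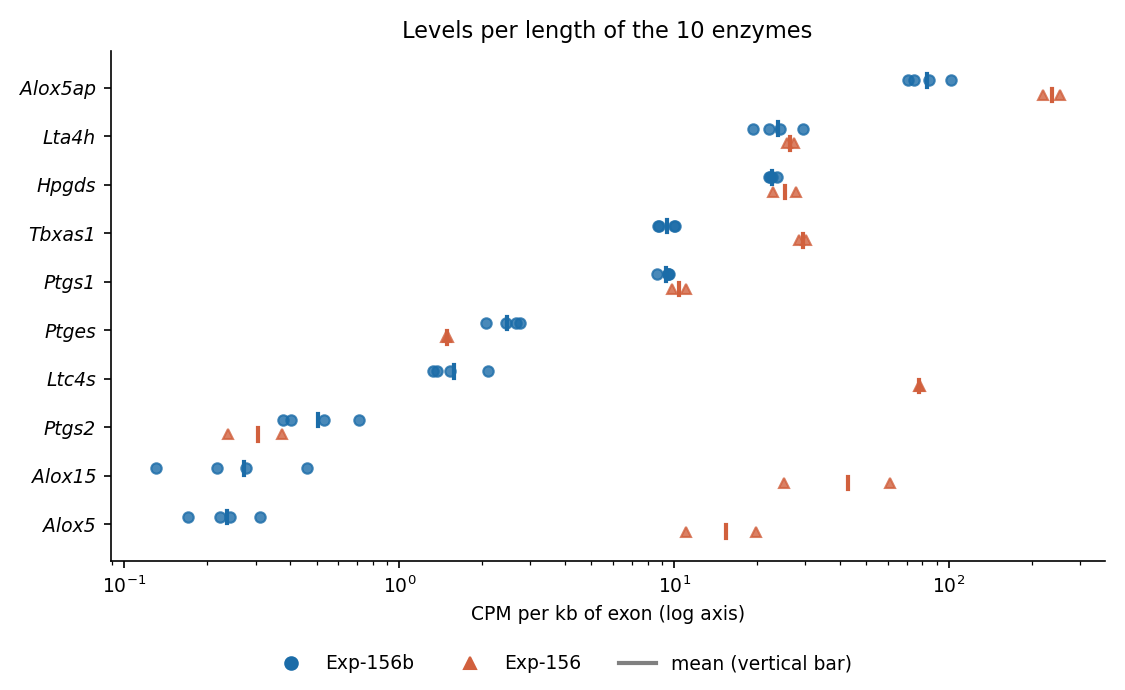
CPM per kb of annotated exon for each enzyme on a log axis, one symbol per library, circles for the 4 Exp-156b and triangles for the 2 Exp-156 libraries, with vertical bars at the means. Alox5ap is on top in both sets, and Ltc4s, Alox15 and Alox5 are at 1.58, 0.272 and 0.236 in Exp-156b, against 78.1, 42.9 and 15.4 in Exp-156.

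Of 71 other genes of the pathway, 54 were tested. Between the genotypes 0 passed, 9 had an unadjusted p under 0.05, 30 lay above 0 and 24 below, and the median log2 fold change was 0.03. Between the codes 17 were higher and 16 lower in Exp-156b, with a median of -0.01, beside 2559 higher and 2943 lower of all 12827 genes and a median of 0. The median gene of the pathway lay near 0, as did the median of all genes.

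On the leukotriene side several genes were lower by large factors. Among the 3 tested receptors, Ltb4r1, the receptor of leukotriene B4, stood at 0.199 and 0.411 CPM in the Tg-ACE and 0.604 and 0.239 CPM in the WT libraries of Exp-156b, against 10.9 CPM in the Tg-ACE and 22.3 CPM in the WT library of Exp-156. Its log2 fold change was -5.46 (SE 0.28, edgeR adjusted p = 1.8e-05). Cysltr1, a receptor of cysteinyl leukotrienes, averaged 3.55 CPM in Exp-156b and 22.5 CPM in Exp-156 (-2.66), and the third receptor did not pass. Cyp4f18, which hydroxylates leukotriene B4 in mouse neutrophils, averaged 10.9 CPM in Exp-156b and 102.8 CPM in Exp-156 (-3.16). Of the 5 tested genes that convert leukotrienes or bind 5-lipoxygenase, 3 were lower and 2 did not pass. The lower ones included Cotl1, whose coactosin-like product binds 5-lipoxygenase, at 639.0 CPM in Exp-156b and 1234.6 CPM in Exp-156 (-0.95), and the leukotriene D4 dipeptidase gene Dpep2 (-0.53).

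The prostanoid side was mixed. Among the other prostaglandin synthases 4 of 6 tested were higher in Exp-156b, 1 was lower and 1 did not pass. The prostacyclin synthase gene Ptgis averaged 30.3 CPM in Exp-156b and 15.3 CPM in Exp-156 (0.99), and the cytosolic prostaglandin E synthase gene Ptges3 had a log2 fold change of 0.30. Fam213b, a prostaglandin F synthase gene, was lower (-1.03). Of 5 tested prostanoid receptors 1 was higher, the prostacyclin receptor gene Ptgir (0.52), 1 was lower, the prostaglandin E2 receptor gene Ptger1 (-0.28), and 3 did not pass.

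Genes that free or bind back arachidonic acid moved both ways. Of 14 tested genes of release 5 were higher and 3 lower in Exp-156b, with the cytosolic phospholipase A2 gene Pla2g4a (-0.55) and the lysosomal phospholipase gene Pla2g15 (-0.49) lower and the diacylglycerol lipase gene Daglb (0.48) higher. The largest of the 5 rises, named after their values were seen, were those of Pla2g2d and Mgll. Pla2g2d, a secreted phospholipase A2 gene, averaged 0.974 CPM in Exp-156b and 0.167 CPM in Exp-156 (2.39, SE 0.64). It had 8 to 40 counts per library in Exp-156b and only 6 and 3 in Exp-156, near the depth limit. The monoacylglycerol lipase gene Mgll averaged 150.2 CPM in Exp-156b and 37.8 CPM in Exp-156 (1.97). Of 8 genes of reacylation 5 were higher, such as the acyl-CoA synthetase gene Acsl1 (0.46), and 2 were lower, Lpcat2 (-2.17), which also makes platelet-activating factor, and Lpcat3 (-0.64). Of 11 genes of inactivation and transport, besides Cyp4f18, Cyp4f16 (-0.55) was among the 4 lower and Abcc1 (0.43), which exports leukotriene C4, among the 2 higher, and 5 did not pass. Gpx4, which reduces lipid hydroperoxides, did not pass (0.13).

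**Figure D4:**
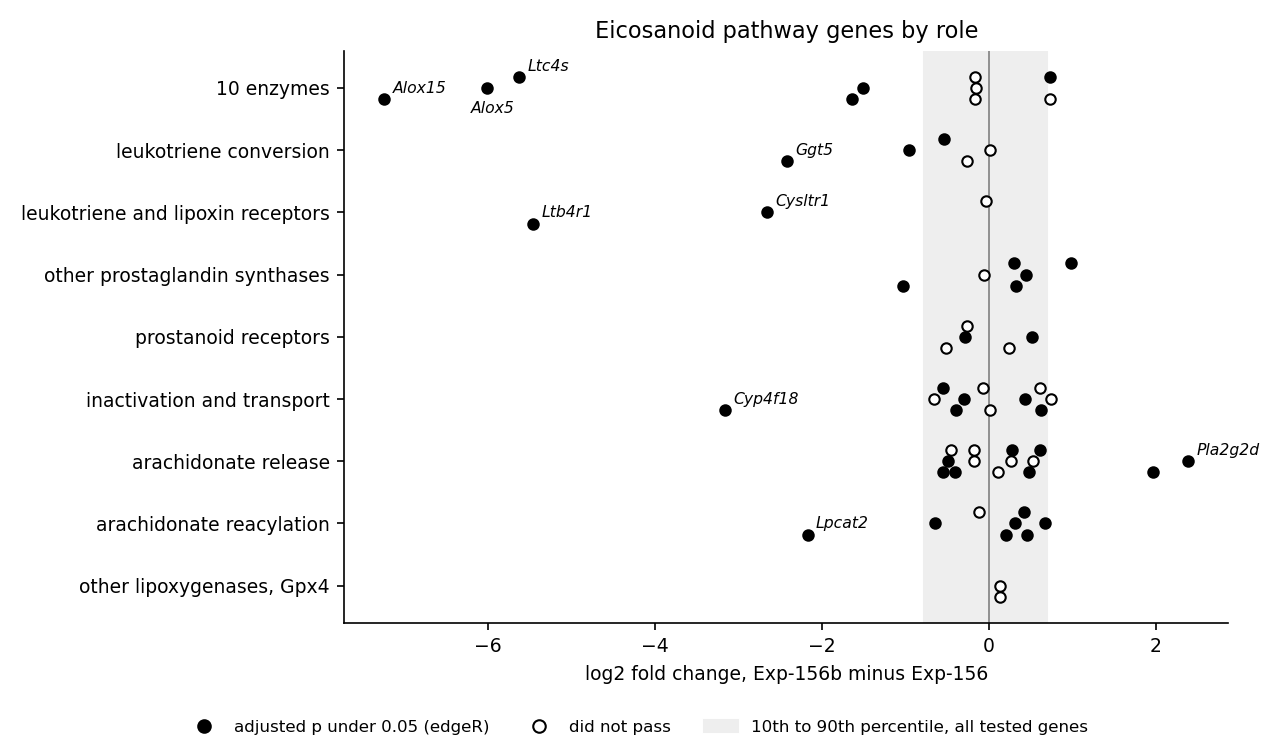
Log2 fold changes, Exp-156b minus Exp-156, of the tested genes by role in the pathway, with 1 point per gene. Filled points passed edgeR's test and the grey band spans the 10th to 90th percentile of all tested genes, -0.77 to 0.70. Alox15, Alox5, Ltc4s and Ltb4r1 lie below -5, and the prostanoid rows stay near the band.

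Between the genotypes, the other pathway genes with the smallest p in their role were Pla2g15 (0.28, unadjusted p = 0.0136), Fam213b (0.28, unadjusted p = 0.0185), Ltb4r1 (-0.88, unadjusted p = 0.0214), Lpcat2 (-0.58, unadjusted p = 0.0232) and Cyp4f18 (-0.55, unadjusted p = 0.0259), each with an edgeR adjusted p of 0.761. Dpep2 (0.15), Ptger4 (0.18) and Gpx4 (0.12) had larger p. Lpcat2 stood at 35.6 CPM in the Tg-ACE and 73.5 CPM in the WT library of Exp-156 and Cyp4f18 at 65.0 and 140.6 CPM, so that both had the same order inside Exp-156 as Alox5 and Alox15.

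Alox12e, an epidermal 12-lipoxygenase gene named here after its values were seen, lies 21.5 kb from Alox15 on chromosome 11 and fell under the filter on low counts. It stood at 0.04 CPM in each Tg-ACE and at 0 CPM in each WT library of Exp-156b, against 1.79 CPM in the Tg-ACE and 4.13 CPM in the WT library of Exp-156. It was thus left out of the main test between the codes. Under a filter by code, added after seeing the data, its log2 fold change was -6.89 (SE 0.61).

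Profiles over the 6 libraries were compared by the root mean square difference of centred log2 CPM. The candidates were 9729 genes that passed the filter by genotype and had a mean of at least 5 CPM. Nearest to Alox15 were Adgre4 (0.49), Ccr2 (0.67), Rab44 (0.76), Retnlg (0.79) and Mgl2 (0.80). Ccr3, with a mean of 33.7 CPM, did not pass that filter and was not compared. Adgre4 stood at 0.438 and 0.123 CPM in the Tg-ACE and 0.568 and 0.0398 CPM in the WT libraries of Exp-156b, against 24.6 CPM in the Tg-ACE and 38.8 CPM in the WT library of Exp-156. Nearest to Alox5 were Tppp3 (0.29), Fam101b (0.29), Cbr2 (0.40), F5 (0.43) and Mlxipl (0.49). Tppp3 stood at 0.638 and 0.740 CPM in the Tg-ACE and 0.852 and 1.23 CPM in the WT libraries of Exp-156b, against 50.8 CPM in the Tg-ACE and 52.9 CPM in the WT library of Exp-156. With 2 Exp-156 libraries against 4, likeness rests mostly on the size of the step between the codes.

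Markers of other cells moved with the code as well. In bulk libraries fewer cells of a type and less RNA per cell cannot be told apart. All 6 tested markers of monocytes and small peritoneal macrophages were lower in Exp-156b, and the list of 7 summed to 581.2 to 1116.4 CPM there and to 3934.9 and 4644.1 CPM in Exp-156. Fn1 made up most of each sum, at 521.4 to 1086.6 CPM in Exp-156b and at 3397.7 and 4268.8 CPM in Exp-156. Ccr2, the chemokine receptor of inflammatory monocytes, stood at 1.31 to 6.14 CPM in Exp-156b and at 175.9 and 192.4 CPM in Exp-156. Among markers of large peritoneal macrophages 5 of 7 were lower, such as Timd4 (-4.69) and F5 (-5.22), and 2 were higher, Gata6 (1.41) and Cd9 (0.65). The list summed to 906.3 to 1076.6 CPM in Exp-156b and to 836.4 and 946.8 CPM in Exp-156. Cd9 made up most of each sum, at 869.1 to 1043.7 CPM in Exp-156b and at 595.8 and 608.8 CPM in Exp-156. Of the 10 macrophage core rows 7 were lower, among them Itgam (-1.78) and Adgre1 (-1.22). The sums, mostly Lyz2, were 18227.6 to 22175.6 CPM in Exp-156b and 21880.7 and 21991.0 CPM in Exp-156.

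Both tested markers of eosinophils, Siglecf (-1.96) and Il5ra (-2.87), were lower in Exp-156b, and the list of 7 summed to 10.3 to 21.2 CPM there and to 98.3 and 241.4 CPM in Exp-156. Of that, Ccr3 made up 55.3 CPM in the Tg-ACE and 146.3 CPM in the WT library of Exp-156, while the granule genes Epx, Prg2, Ear1 and Ear6 were at 0.859 CPM or less in every library. At these few counts Epx, Ear6 and, barely, Prg2 were lower in Exp-156b without overlap, and Ear1 overlapped. Ear6 had 6 and 21 counts in Exp-156 and 0 in each Exp-156b library. Among markers of mast cells and basophils 6 of 7 tested were lower, and the list of 9 summed to 15.1 to 30.7 CPM in Exp-156b and to at least 64.3 CPM in each Exp-156 library. The neutrophil list summed to 11.2 to 14.7 CPM in Exp-156b and to 148.4 and 474.9 CPM in Exp-156, with 2 of 4 tested markers lower. In Exp-156 Retnlg made up most of the sum, at 128.5 and 438.4 CPM, and in Exp-156b S100a8 did, at 8.92 to 10.2 CPM. The defining marker Ly6g was at 0 in 5 of 6 libraries and at 0.0409 CPM in WT replicate 1. Platelet markers summed to 19.1 to 38.6 CPM in Exp-156b and to 73.0 and 101.3 CPM in Exp-156, with 2 of 4 tested lower and 1 higher. Immediate early genes, which handling of cells can raise, summed to 737.3 to 818.0 CPM in Exp-156b and to 1473.3 and 1766.6 CPM in Exp-156, with 6 of 7 tested lower. Markers of mesothelial cells and fibroblasts went the other way, with 5 of 7 higher in Exp-156b, among them Pdgfra (2.28), Upk3b (1.98) and Col1a1 (1.60), and 1 lower. Among T and NK cell markers 4 of 5 tested were lower, and the list of 7 summed to 2.96 to 5.54 CPM in Exp-156b and to 10.8 and 14.2 CPM in Exp-156. Dendritic cell markers, with 1 of 2 tested lower, summed to 4.50 to 9.25 CPM in Exp-156b and to 28.6 and 32.1 CPM in Exp-156. None of the 5 B cell markers passed, and they summed to 56.4 to 128.4 CPM in Exp-156b and to 95.5 and 122.1 CPM in Exp-156. The part of these markers in the values of Alox15, Alox5, Ltc4s, Tbxas1, Alox5ap, Ptges and Ptgis was not tested.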

How the data were processed

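RSEM expected counts, not normalized, were deposited by the authors in 1 table for 6 libraries sequenced as single reads of 75 bases from a stranded poly-A kit, per the labels' protocols. The submitters' processing notes name STAR 2.5.0, RSEM 1.2.25, mm10 and GRCh38, with no roles. The table held 25509 gene rows, 0 columns of other samples and 92 ERCC spike-in rows, which summed to 1 count and were left out. Values were rounded to whole counts.

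Genotypes came from the sample titles and codes from the descriptions. One fit with genotype and code as terms in edgeR 4.0.16 (R 4.3.3; quasi-likelihood test), using TMM factors, filterByExpr by genotype and Benjamini-Hochberg adjustment at 0.05, gave both comparisons. Standard errors are log2 fold changes over the square root of F. edgeR bounds p from below by the Poisson test, so a p can be larger than its standard error implies. The biological coefficient of variation was 0.108, and 0.31 with genotype alone. CPM values use TMM-scaled totals, and log2 CPM a prior count of 2. Depth limits cover counting error only. No libraries were identical (mean chi-square per gene at least 12.8). The scripts were tested on simulated data.

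The replicate numbers were checked as pairs. Same-numbered libraries deviated together (r = 0.856, 0.483 and 0.637), but with the code removed those numbered 2 and 3 did not (-0.178 and -0.101), so the pairing seen is that of the codes.

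Positions and exon lengths came from GENCODE vM21 (GRCm38), promoters from RefSeq (GRCm38.p6). The enzymes and lists were chosen with earlier results of these data known. Other pathway genes were named by rule: up to 3 that passed per role and comparison by smallest p among genes with a mean of at least 1 CPM, or the 1 with the smallest p where none passed. The profile rule took the 2 enzymes with the widest range among those with a mean of at least 5 CPM, and the 5 nearest genes each. Alternatives included DESeq2 1.42.0, limma-voom (limma 3.58.1), other factors and filters, single experiments or genotypes, a replicate block and each library left out, and a filter by code that was added after seeing the data.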

Additional observations from a re-analysis of the deposited data

Results flagged for a closer look

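Among the 4 Exp-156b libraries, Ptgs1 in WT replicate 3, at 33.7 CPM, stood apart from the other 3, at 36.9 to 37.1 CPM. The gap was 0.942 of the whole range, above the 95% limit for 4 values. Chance gives such a gap in about 1 of 20 groups, and 10 enzymes were examined.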

How the results depend on the processing

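Alox15, Alox5, Ltc4s, Tbxas1 and Alox5ap kept their calls as lower in Exp-156b under each alternative in which they were tested, at -7.64 to -6.63, -6.17 to -5.77, -5.84 to -5.41, -1.68 to -1.56 and -1.61 to -1.41. Alox15 was not tested in WT libraries only, and Alox15, Alox5 and Ltc4s were not tested under the filter of 5 CPM in 3 libraries. Leaving out 1 library at a time gave 5 to 7 enzymes called between the codes, and a filter of 5 CPM in 3 libraries gave 3 of the 6 left to test. Ptges also missed the threshold in the Tg-ACE libraries alone (0.69, edgeR adjusted p = 0.099). No enzyme passed between the genotypes under any alternative. Genes called between the codes were 5502, against 3230 in WT libraries only, 3024 in Tg-ACE libraries only and 3409 to 5260 with 1 library left out (3409 without Tg-ACE replicate 1 and 3448 without WT replicate 1). Upper-quartile factors moved their split to 3332 higher and 2408 lower, 58% higher against 46.5%. Genes called between the genotypes were 2, against 0 with genotype alone (126 at an unadjusted p under 0.05), 9 with no filter, 37 by DESeq2 (19 higher and 18 lower) and 2 to 3 with 1 library left out. With the replicate block 2 were called, and it changed no enzyme's call. For the interaction DESeq2 called 13 genes. The cause of these changes was not tested. Signs turned only for small values. Between the codes these were Hpgds (0.01 in WT libraries only, -0.32 to 0.01 with 1 library left out) and Lta4h (0.02 in Tg-ACE libraries only). Between the genotypes they were Hpgds (-0.04 in Exp-156b only, -0.04 to 0.12 with 1 library left out), Ptgs1 (0.07 in Exp-156b only, 0.01 with upper-quartile factors, -0.07 to 0.07 with 1 left out), Lta4h (-0.03 to 0.24), Ptges (-0.16 to 0.07) and Tbxas1 (-0.01 to 0.10). With 2 Exp-156 libraries, and 1 when either is left out, the lone library is assumed to vary like the others.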
